A study of Arabidopsis thaliana with 80 samples.

Results

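The genes described here are 36 loci of the auxin pathway in Arabidopsis thaliana: 28 Aux/IAA repressor genes, 4 GH3 genes and 4 genes of auxin synthesis. They were taken by locus from a table of 33602 genes. Messenger RNA of rosette leaves was sequenced from plants grown outdoors in a botanical garden in southern Spain. The accessions were Bon, Moj and Vel, natural lines of that region, and Col-0, the laboratory line whose genome is the reference. Tissue was taken at successive collections named ex1 to ex4, in an afternoon window from 15:30 to 16:00 that the labels call evening and in a morning window from 10:00 to 10:30. Each library was 1 pool of 5 plants from 1 garden, with roots removed from every sample and flower stalks removed at the reproductive stage. The tests therefore measure the spread between pools, and the labels do not say which collection was vegetative, inductive or reproductive.

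Bon and Moj were sampled at ex1 to ex3, and Vel and Col-0 at ex1 to ex4, evening and morning each time. This gave 28 groups in 79 libraries, 23 groups of 3 libraries and 5 of 2. The collection number is deposited as an extraction number, so collection and extraction batch cannot be told apart. The library labelled Moj ex3 morning replicate 1 was left out, because it went against its label. Its closest library was Vel ex3 morning replicate 1 (correlation 0.984 across genes), while its highest correlation with a library of its own group was 0.928. The other 79 libraries were each closest to a library of their own group. Read counts were not analysed here, so the depth behind a value is unknown. Each library listed from 20428 to 22858 genes at more than 0. Values are log2 of a length-normalized estimate plus 1, so levels can be set beside each other between genes, and a difference of 1 is a 2-fold change that is understated for low genes.

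Auxin acts by removing repressors. Aux/IAA proteins hold auxin response factors (ARFs) inactive at the promoters of growth genes, and auxin joins them to the TIR1 and AFB F-box receptors through a short degron, after which they are destroyed. Most Aux/IAA and several GH3 genes are themselves switched on by auxin, so their transcripts are used as readouts of the response, and both act to end it: Aux/IAA proteins restore repression and GH3 enzymes join auxin to amino acids. Auxin is made from tryptophan by the aminotransferase TAA1 and the YUC flavin monooxygenases. In rosettes the pathway is known for control of leaf growth, petiole elongation and the start of flowering shoots.

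The core of the degron is the residue run Gly-Trp-Pro-Pro, and its codons were found in 22 of the 28 Aux/IAA coding sequences. They were not found in IAA20, IAA30, IAA31, IAA32, IAA33 and IAA34. Both kinds were compared by level. The 6 genes without the codons had mean levels from 0.03 to 0.65 log2 units over the 28 groups, with a median of 0.18. The 22 genes with them ranged from 0.44 to 6.74, with a median of 4.28. The ranges overlapped only at their edges, where IAA5 and IAA6 among the degron genes were as low as the genes without. The coding stretch around the degron is shown for 6 genes whose values carry the results below, with the 4 degron codons in capitals and 15 bases on either side. The sequences and coordinates are those of RefSeq TAIR10.1, and each printed run is spliced coding sequence whose coordinates span an intron. They are IAA3 at chr1:1129013-1129136 (minus strand), IAA7 at chr3:8195005-8195603 (plus strand), IAA9 at chr5:26255003-26255139 (plus strand), IAA14 at chr4:8349472-8349704 (minus strand), IAA16 at chr3:1289724-1290214 (minus strand) and IAA17 at chr1:1136619-1136973 (plus strand).
IAA3: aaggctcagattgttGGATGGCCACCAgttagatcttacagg
IAA7: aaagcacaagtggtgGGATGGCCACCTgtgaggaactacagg
IAA9: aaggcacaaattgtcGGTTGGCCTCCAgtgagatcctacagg
IAA14: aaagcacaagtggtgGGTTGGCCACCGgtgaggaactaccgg
IAA16: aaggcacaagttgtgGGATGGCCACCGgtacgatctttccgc
IAA17: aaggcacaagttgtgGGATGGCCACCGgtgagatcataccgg

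Over all groups IAA9 (AT5G65670), a long Aux/IAA gene, had the highest level, with a mean of 6.74 log2 units and libraries between 5.98 and 7.40. IAA2 (AT3G23030) followed at 5.72, IAA16 (AT3G04730) at 5.60, IAA8 (AT2G22670) at 5.37, IAA17 (AT1G04250) at 5.31 and IAA3 (AT1G04240) at 5.21, and the library ranges of these 6 genes overlapped. Of the 36 genes, 13 had a mean of at least 4 and 13 had a mean under 1. IAA20, IAA31, IAA33, IAA34, GH3.1 and YUC9 did not have a value of at least 1 in 3 libraries and were not tested. No library of these 6 exceeded 1.47, and they were listed at 0 in 35 (YUC9) to 67 (IAA31 and GH3.1) of the 79 libraries. The other 30 were tested.

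IAA14 (AT4G14550) moved over the widest range of group means, from 0.40 in Moj ex3 evening to 4.83 in Bon ex1 evening. IAA1 (AT4G14560) ranged over 3.84 log2 units, GH3.5 (AT4G27260) over 3.47, IAA3 over 3.23 and IAA16 over 2.96. IAA9 ranged over 1.13, the smallest range among the 23 genes with a mean of at least 1.

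**Figure D1:**
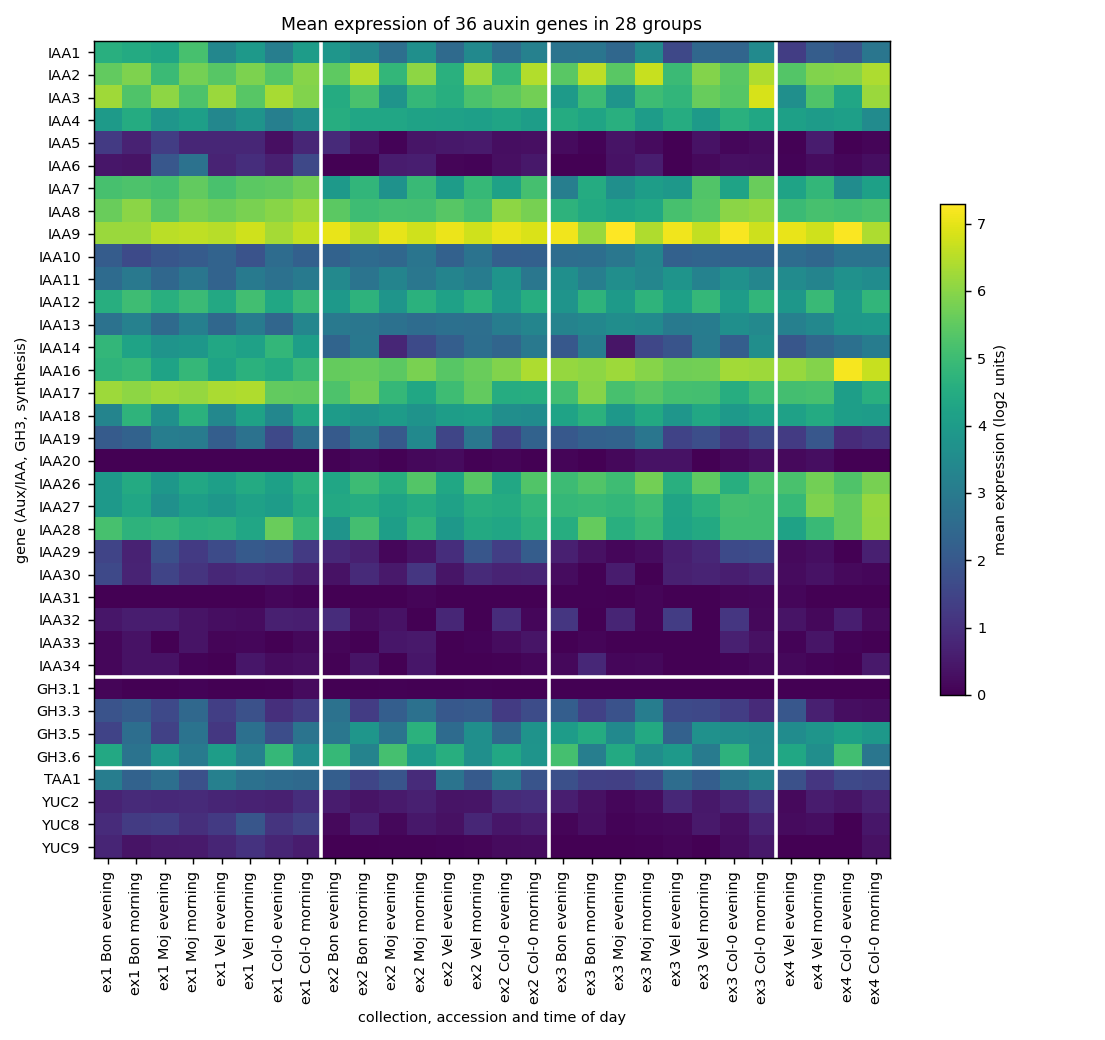
Mean expression (log2 units, colour) of the 36 auxin genes (rows, by Aux/IAA, GH3 and synthesis) in the 28 groups (columns, by collection, then accession, then evening and morning). IAA9 stayed between 6.16 and 7.29 in every group, IAA14 was highest in the ex1 groups, and IAA31 and GH3.1 stayed near 0.

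Tissue content was checked with marker genes, whose length-normalized values were summed after taking them back from the log scale. The leaf list, led by photosynthesis genes, summed to between 4809 and 19056 per library, against at most 41.4 for root markers and 26.2 for flower organ markers. Its member RBCS1A had a median equal to its highest value, 13.3 log2 units. This ceiling limits the leaf sums as a measure of leaf content. WUS, which marks the stem cell centre of the shoot, was listed at 0 in every library of ex1 and ex4. Xylem markers, the secondary wall cellulose synthases and IRX9, summed to 46.0 to 131.5 in Bon and Moj at ex3, against 4.27 to 9.12 in Vel and Col-0 at ex3, and reached 39.3 to 154.6 in Vel and Col-0 at ex4. The shoot meristem list, mostly STM and KNAT1, summed to 6.30 to 13.3 at ex1 and 28.7 to 59.8 at ex4. In whole rosettes fewer cells of a type and less RNA per cell cannot be told apart.

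The first question was how these genes differ between evening and morning, asked within each collection with accessions weighted equally. At ex1, 25 of the 30 tested genes changed, 8 higher and 17 lower in the evening. Of the 20871 genes tested 47.8% changed, 22.1% higher and 25.7% lower. Here and below, a change is a limma Benjamini-Hochberg adjusted p under 0.05 over all genes tested. The median difference of the 30 was -0.27 log2 units, against -0.03 over all genes. Of 24 tested Aux/IAA genes 6 rose and 14 fell, of 3 GH3 genes 1 rose and 2 fell, and of 3 synthesis genes 1 rose and 1 fell.

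Among the Aux/IAA genes at ex1, IAA18 (AT1G51950), which affects root initiation and embryo axis formation, ranged from 3.11 to 3.66 (median 3.48) in 10 evening libraries, against 3.91 to 4.82 (median 4.56) in 12 morning libraries. No evening library reached the lowest morning library, and the difference was -1.05 (SE 0.08, limma adjusted p = 3.5e-18). IAA13 (AT2G33310), a close relative of IAA12 (AT1G04550), was likewise lower, at 2.25 to 2.84 in the evening and 2.85 to 3.44 in the morning, a difference of -0.65 (SE 0.07). IAA1 and IAA2, small auxin-induced repressors, fell by 0.55 and 0.54, with overlapping libraries and, for IAA1, with 3 of 4 accessions lower. IAA3, also known as SHY2 and best studied as a brake on the root meristem, went the other way: it ranged from 5.85 to 6.49 (median 6.21) in the evening, against 5.04 to 6.31 (median 5.40) in the morning. The difference of 0.75 (SE 0.10, adjusted p = 1.0e-08) had the same sign in all 4 accessions. IAA28 (AT5G25890), a repressor of lateral root founder cells, rose by 0.46 (SE 0.11) and IAA29 (AT4G32280), a shade-induced Aux/IAA gene, by 0.40 (SE 0.14) with 3 of 4 accessions higher. The IAA29 call was lost without Moj ex1 evening replicate 1, at 0.33 with an adjusted p of 0.058, and with an offset of 0.1 in place of 1 (adjusted p = 0.11).

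The GH3 genes parted at ex1. GH3.3 (AT2G23170) fell by 0.46 (adjusted p = 0.042), a call that was lost in 11 of 22 fits that left out 1 library each (adjusted p up to 0.122), with Moj ex3 morning replicate 1 kept (0.065) and with no filter on low values (0.058). GH3.5, which conjugates auxin and salicylic acid, ranged from 0.94 to 2.03 (median 1.39) in the evening, against 2.59 to 3.03 (median 2.67) in the morning, with no overlap and a difference of -1.28 (SE 0.14, adjusted p = 4.1e-11). GH3.6 (AT5G54510), an auxin-amido synthetase also known as DFL1, ranged from 3.74 to 5.19 (median 4.25) in the evening, against 2.57 to 3.91 (median 3.08) in the morning. It rose by 1.16 (SE 0.17, adjusted p = 4.3e-08), in 4 of 4 accessions. TAA1 (AT1G70560) ranged from 2.24 to 3.36 (median 3.08) in the evening, against 1.51 to 2.83 (median 2.38) in the morning. The libraries overlapped, and TAA1 rose by 0.55 (SE 0.12), in 4 of 4 accessions.

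At ex2, 22 of the 30 genes changed, 6 higher and 16 lower in the evening, against 66.8% of all genes tested (33.7% higher and 33.1% lower), and the median was -0.28 against 0.00 over all genes. IAA2 ranged from 4.43 to 5.69 (median 4.97) in 12 evening libraries, against 5.87 to 6.71 (median 6.32) in 12 morning libraries. The 2 sets did not overlap, and IAA2 fell by 1.35 (SE 0.11, adjusted p = 1.3e-15). IAA26 (AT3G16500), which interacts with a tobamovirus replicase, fell by 0.86 (SE 0.07), also with no overlap. IAA19 (AT3G15540), also known as MSG2 and needed for bending of the hypocotyl, fell by 1.1 (SE 0.12), and IAA7 (AT3G23050), the AXR2 repressor of shoot and root growth, fell by 0.98 (SE 0.14). GH3.5 fell by 1.30 (SE 0.14).

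Rises at ex2 were led by GH3.6 at 1.09 (SE 0.16) and TAA1 at 0.86 (SE 0.11). TAA1 ranged from 1.74 to 3.43 (median 2.33) in the evening, against 0.86 to 2.49 (median 1.62) in the morning, so the libraries overlapped while all 4 accessions rose. Among repressors IAA11 (AT4G28640) rose by 0.53 (SE 0.08), IAA9 by 0.31 (SE 0.06) and IAA8 by 0.23 (SE 0.09). The IAA8 call was lost in 8 of 24 fits that left out 1 library each, with adjusted p up to 0.101.

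At ex3, 18 of the 30 changed, 5 higher and 13 lower, against 58.6% of all genes tested (29.9% higher and 28.7% lower), and the median was -0.11 against -0.00. IAA14, the SOLITARY-ROOT repressor of lateral root initiation, ranged from 0.27 to 2.45 (median 1.97) in 12 evening libraries, against 1.47 to 3.86 (median 3.1) in 10 morning libraries. It fell by 1.20 (SE 0.11, adjusted p = 1.1e-14), and each accession was lower in the evening. IAA7 fell by 1.15, IAA3 by 1.13, IAA2 by 1.08 and IAA12, the BODENLOS repressor of the embryonic root, by 0.81, the last 2 with no overlap between evening and morning. GH3.6 rose by 1.25 (SE 0.17), IAA9 by 0.71 (SE 0.06) and without overlap, IAA11 by 0.41 and IAA4 (AT5G43700) by 0.40. IAA32 (AT2G01200), which lacks the degron codons and was low throughout, ranged from 0.62 to 1.40 in the evening, against 0.00 to 0.21 in the morning, and rose by 1.02 (SE 0.10). The IAA32 locus overlaps AT2G01210 on the opposite strand by 826 bases, and that gene differed by 0.14 (adjusted p = 0.16).

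At ex4, where only Vel and Col-0 were sampled, 17 of the 30 changed, 6 higher and 11 lower, against 48.9% of all genes tested (25% higher and 23.9% lower), and the median was -0.20 against 0.00. The count was 11 without Col-0 ex4 evening replicate 1, which leaves that group with 1 library. IAA3 had 4.5 and 4.11 in Col-0 evening libraries and 3.19, 3.79 and 3.9 in Vel evening libraries, against 6.36, 5.93 and 6.24 in Col-0 morning libraries and 5.35, 5.30 and 5.16 in Vel morning libraries. Every evening library lay below every morning library, and IAA3 fell by 1.76 (SE 0.15, adjusted p = 2.3e-15). IAA12 fell by 0.98, IAA1 by 0.89 and IAA27 (AT4G29080) by 0.79, all with no overlap, and IAA28 fell by 0.65. GH3.6 rose by 1.47 (SE 0.24) with no overlap, IAA9 by 0.59, IAA4 by 0.36 and IAA16, a repressor whose stabilized form restricts shoot growth, by 0.36. GH3.3 rose by 0.67 (SE 0.27), but by 0.20 (adjusted p = 0.47) without Vel ex4 evening replicate 1, and the call was lost in 7 of 11 such fits.

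**Figure D2:**
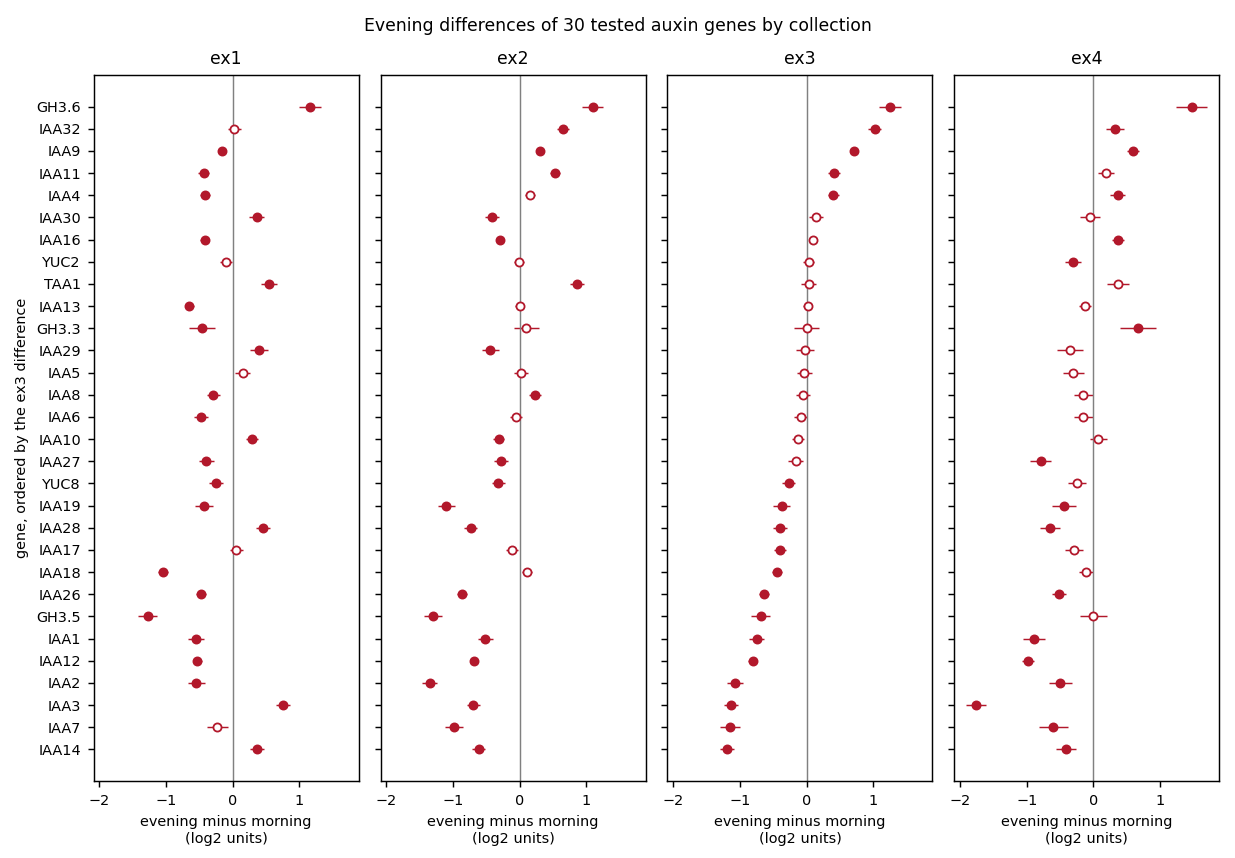
Evening minus morning difference (log2 units, with 1 SE) of the 30 tested auxin genes in each collection, with filled points for an adjusted p under 0.05. GH3.6 lay right of 0 in all 4 panels, and IAA3, IAA14 and IAA28 lay right of 0 at ex1 and left of it at ex2 to ex4.

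Across the 4 collections GH3.6 was the 1 gene of the 30 that rose in the evening every time (4.78% of all genes tested), and its difference did not pass the test for dependence on collection (F test over ex1 to ex3, adjusted p = 0.82). IAA1, IAA2, IAA12, IAA19 and IAA26 fell every time on average over accessions, against 5% of all genes tested. Bon did not share the fall of IAA1, with differences of 0.15 at ex1, 0.42 at ex2 and -0.03 at ex3. IAA19 was at 0.05 in Moj at ex1. In all other cases the accession mean of these genes was lower in the evening. The falls of IAA12 were -0.53, -0.68, -0.81 and -0.98 at ex1, ex2, ex3 and ex4, and evening and morning libraries did not overlap in any collection. The fall of IAA2 at ex4 was -0.50, and -0.32 (adjusted p = 0.11) without Vel ex4 evening replicate 2 and -0.41 (adjusted p = 0.053) without replicate 3 of that group. The fall of IAA19 at ex1 was -0.43, and -0.27 (adjusted p = 0.082) without Col-0 ex1 evening replicate 3. At ex4 it was -0.44, a call lost in 7 of 11 fits that left out 1 library each.

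The difference between evening and morning depended on the collection for 23 of the 30 genes, against 71.6% of all genes tested. Of these 23, 11 were called in opposite directions at different collections, which is 11 of the 30 tested; the same was true of 21.7% of all genes tested. Relative to ex1 the difference itself changed for 18 genes at ex2, against 59% of all genes tested, and for 18 at ex3, against 54.5%. IAA3 had differences of 0.75, -0.70, -1.13 and -1.76 at ex1, ex2, ex3 and ex4 (F test adjusted p = 8.1e-17). The switch held in each accession: at ex1 IAA3 was higher in the evening by 0.97 in Bon, 0.79 in Moj, 0.80 in Vel and 0.43 in Col-0, and at ex3 it was lower by 1.03, 1.22, 0.80 and 1.48. IAA3 overlaps AT1G04230 on the opposite strand by 640 bases; that gene fell by 0.13 (adjusted p = 0.038) at ex2, in the direction of IAA3, and differed by 0.10 at ex1, by -0.07 at ex3 and by 0.02 at ex4, none of these called. The libraries came from a kit without strand marking, so reads from the overlap cannot be assigned to either gene by strand.

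IAA14 had differences of 0.36, -0.61, -1.20 and -0.42, and IAA28 had 0.46, -0.73, -0.39 and -0.65. For IAA14 at ex1 the direction was not shared by all accessions, since Moj was at -0.09 while Bon, Vel and Col-0 were at 0.60, 0.21 and 0.74. The ex4 call for IAA14 was lost, with differences between -0.35 and -0.33, without Col-0 ex4 evening replicate 1, Vel ex4 evening replicate 1 or Vel ex4 morning replicate 2. On average over accessions IAA10, IAA29 and the degron-less IAA30 rose at ex1 and fell at ex2. Their differences at ex1 were 0.28, 0.40 and 0.36, and at ex2 -0.31, -0.44 and -0.41. Not every accession switched. At ex1 and ex2 IAA29 was at 0.79 and 0.21 in Bon and at -0.40 and -0.99 in Vel. IAA10 was at -0.138 and -0.405 in Moj, and IAA30 at -0.13 and -0.47 in Vel. The other accessions were higher in the evening at ex1 and lower at ex2. The ex1 calls of IAA29 and IAA30 were lost with an offset of 0.1 (adjusted p = 0.11 and 0.087).

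The opposite switch was seen in IAA4, IAA8, IAA9, IAA11 and IAA16, on average over accessions. They were lower in the evening at ex1 and higher at a later collection. IAA8 was called higher at ex2 only, by 0.23, with Moj at 0.002. It was not called at ex3 or ex4, and at ex4 it was at -0.196 in Vel and -0.115 in Col-0. IAA9 had -0.16, 0.31, 0.71 and 0.59, IAA11 had -0.43, 0.53, 0.41 and 0.19, and IAA4 had -0.42, 0.15, 0.40 and 0.36. The ex1 fall of IAA9 was lost in 8 of 22 fits that left out 1 library each. It was at 0.00 in Bon, -0.07 in Moj, -0.25 in Vel and -0.305 in Col-0. IAA16 had -0.42 at ex1, -0.29 at ex2, 0.09 at ex3 and 0.36 at ex4. Its rise was called at ex4 only, where Bon and Moj were not sampled. The F test does not cover ex4, so the change of IAA16 up to ex4 was not tested. In Vel it was at -0.45 at ex1 and 0.22 at ex4, and in Col-0 at -0.475 and 0.50. Among the synthesis and GH3 genes, TAA1 had 0.55, 0.86, 0.03 and 0.37, of which the first 2 were called, and GH3.5 had -1.28, -1.30, -0.69 and -0.00, of which the first 3 were called. At ex3 GH3.5 was at 0.12 in Col-0 and lower in the evening in Bon, Moj and Vel. No tested root marker differed between evening and morning in any collection, while 2, 3, 1 and 2 of 4 xylem markers were higher and 1, 2, 3 and 3 of 4 leaf markers lower in the evening at ex1, ex2, ex3 and ex4. Both tested meristem markers were lower in the evening at ex2 and 1 of them at ex4, and 1 of 5 flower organ markers was lower at ex3. The part of these markers in the evening differences was not tested.

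**Figure D3:**
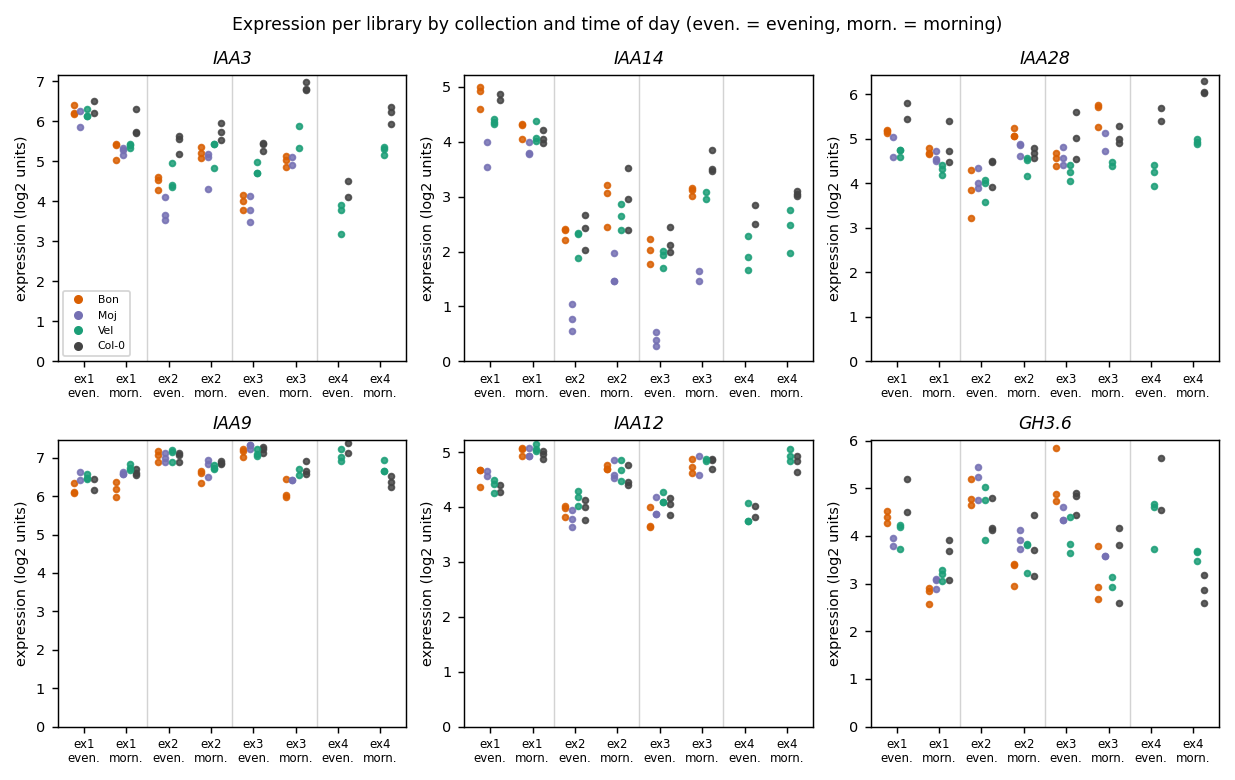
Expression (log2 units) of 6 auxin genes in every library, by collection, with evening left of morning and accessions in colour. On average IAA3, IAA14 and IAA28 were higher in the evening at ex1 and lower later, IAA9 turned the other way, and IAA12 was lower and GH3.6 higher in the evening at each collection.

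The 300 bases before the annotated gene start were searched on both strands for 4 motifs. TGTCTC, the auxin response element first described, was present in 14 of the 36 promoters (38.9%), against 13% of 27443 promoters. TGTCGG, which ARFs bind more tightly, was present in 6 (16.7% against 4.91%). CACGTG, the G-box bound by phytochrome-interacting factors among others, was in 4 (IAA7, IAA19, IAA20 and IAA30; 11.1% against 7.09%), and AATATCT, part of the clock's evening element, in 5 (13.9% against 11.8%). No motif contains another. The promoters of IAA19 and IAA7, which held CACGTG, are shown as examples of genes lower in the evening at ex2 to ex4. IAA1, IAA2, IAA3, IAA12, IAA14, IAA26 and IAA28 were also lower at ex2 to ex4, and none of their windows held CACGTG. A link between this motif and the evening falls was not tested. The ex4 call of IAA7 was lost without Col-0 ex4 evening replicate 1, at -0.53, or Vel ex4 evening replicate 3, at -0.51. That of IAA19 was lost in 7 of 11 fits that left out 1 library each. The promoter of IAA3 is shown because it switched direction, and that of GH3.5 because it was lower in the evening at ex1 to ex3 on average over accessions. Capitals mark the motifs, written as GAGACA where TGTCTC lies on the other strand. IAA19 held 3 TGTCTC and 1 CACGTG, IAA7 held 1 CACGTG, and IAA3 and GH3.5 held 1 TGTCTC each. The windows, in RefSeq TAIR10.1, are IAA19 at chr3:5263701-5264000 (plus strand), IAA7 at chr3:8194306-8194605 (plus strand), IAA3 at chr1:1129690-1129989 (minus strand) and GH3.5 at chr4:13653279-13653578 (plus strand).
IAA19: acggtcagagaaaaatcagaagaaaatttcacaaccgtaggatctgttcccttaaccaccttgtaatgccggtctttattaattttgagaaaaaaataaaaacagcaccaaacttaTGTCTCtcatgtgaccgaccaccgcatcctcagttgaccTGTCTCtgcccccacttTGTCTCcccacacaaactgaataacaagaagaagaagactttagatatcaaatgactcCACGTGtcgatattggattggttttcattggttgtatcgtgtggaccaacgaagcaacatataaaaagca
IAA7: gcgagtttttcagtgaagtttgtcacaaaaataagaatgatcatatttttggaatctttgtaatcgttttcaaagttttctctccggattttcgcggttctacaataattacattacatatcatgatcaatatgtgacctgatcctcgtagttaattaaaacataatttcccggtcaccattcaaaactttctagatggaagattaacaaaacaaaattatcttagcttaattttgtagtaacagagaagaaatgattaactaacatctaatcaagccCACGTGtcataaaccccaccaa
IAA3: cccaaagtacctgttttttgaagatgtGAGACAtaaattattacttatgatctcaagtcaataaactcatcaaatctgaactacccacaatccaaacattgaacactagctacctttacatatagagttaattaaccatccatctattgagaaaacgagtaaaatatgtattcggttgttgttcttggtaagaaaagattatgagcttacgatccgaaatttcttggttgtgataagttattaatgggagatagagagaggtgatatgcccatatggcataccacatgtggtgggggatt
GH3.5: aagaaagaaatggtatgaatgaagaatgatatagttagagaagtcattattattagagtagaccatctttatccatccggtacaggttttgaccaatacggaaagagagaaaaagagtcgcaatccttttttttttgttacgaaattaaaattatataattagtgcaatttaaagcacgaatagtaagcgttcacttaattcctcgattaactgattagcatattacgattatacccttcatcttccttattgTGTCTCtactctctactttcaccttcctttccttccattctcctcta
The windows of GH3.6 and IAA14 held none of the 4 motifs.

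The second question was how the genes changed between successive collections. From ex1 to ex2 26 of the 30 changed, 10 higher and 16 lower at ex2, against 83.2% of all genes tested (39.5% higher and 43.7% lower), and the median was -0.16 against -0.03. On average over accessions all 3 tested GH3 genes rose and all 3 tested synthesis genes fell, while 7 Aux/IAA genes rose and 13 fell. The rise of GH3.3 was not called without Col-0 ex1 evening replicate 1, at 0.28. IAA14 ranged from 0.55 to 3.53 (median 2.39) in 24 ex2 libraries, against 3.53 to 4.99 (median 4.26) in 22 ex1 libraries. The lowest ex1 library lay just above the highest ex2 library, and IAA14 fell by 2.03 (SE 0.07, adjusted p = 1.9e-32), in 8 of 8 pairs of accession and time of day. IAA16 moved the other way and ranged between 5.31 and 6.53 (median 5.66) at ex2, against 3.93 to 5.06 (median 4.71) at ex1. It rose by 1.09 (SE 0.04, adjusted p = 3.1e-30), again in 8 of 8 pairs and with no overlap.

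IAA17, the AXR3 repressor, fell by 1.09 (SE 0.06), IAA1 by 0.96, IAA7 by 0.93 and IAA3 by 0.92, each in 8 of 8 pairs. IAA7 ranged from 3.46 to 5.87 (median 4.45) at ex2, against 5.03 to 5.84 (median 5.32) at ex1. GH3.5 ranged from 1.93 to 4.77 (median 3.52) at ex2, against 0.94 to 3.03 (median 2.59) at ex1, and rose by 1.23 (SE 0.10). IAA26 rose by 0.58, GH3.6 by 0.48 and IAA4 by 0.46. TAA1 fell by 0.58 (SE 0.08) and YUC8 by 0.83 (SE 0.07). Over the same step 4 of 4 xylem markers, 2 of 2 tested root markers and 3 of 4 leaf markers fell, and 4 of 5 flower organ markers and 2 of 2 tested meristem markers rose; their part in these changes was not tested.

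From ex2 to ex3 19 of the 30 changed, 12 higher and 7 lower at ex3, against 54.7% of all genes tested (27.8% higher and 27% lower), and the median was 0.09 against 0.01. IAA13 ranged from 2.77 to 3.85 (median 3.31) at ex3, against 2.34 to 3.4 (median 2.76) at ex2, and rose by 0.49 (SE 0.05, adjusted p = 3.7e-13) in 8 of 8 pairs. Its locus overlaps AT2G33300 on the opposite strand by 1176 bases, and that gene was not among those tested. IAA28 rose by 0.42, IAA27 by 0.38, GH3.5 by 0.35 and IAA18 by 0.33. IAA1 fell by 0.49 (SE 0.08), IAA19 by 0.39, IAA8 by 0.33 and IAA29 by 0.28. Over this step all 4 xylem markers, 2 of 4 leaf markers and 1 of 2 tested meristem markers rose, 1 leaf marker and 1 of 2 tested root markers fell, and their part was not tested.

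From ex3 to ex4, in Vel and Col-0 only, 19 of the 30 changed, 7 higher and 12 lower at ex4, against 56.7% of all genes tested (30% higher and 26.7% lower), and the median was -0.12 against 0.02. TAA1 ranged from 0.98 to 2.18 (median 1.53) in 11 ex4 libraries, against 1.98 to 3.66 (median 2.77) in 11 ex3 libraries, and fell by 1.21 (SE 0.12, adjusted p = 8.3e-13). Only the edges of the ranges overlapped. IAA29 fell by 0.92, IAA3 by 0.81, IAA8 by 0.57 and IAA7 by 0.57. IAA7 was lower in 3 of 4 pairs of accession and time of day. In Vel its mean went from 3.88 to 4.23 in the evening and from 5.30 to 4.83 in the morning. In Col-0 it went from 4.22 to 3.535 in the evening and from 5.61 to 4.14 in the morning. IAA27 ranged from 4.49 to 6.35 (median 5.74) at ex4, against 3.91 to 5.31 (median 4.65) at ex3, and rose by 0.84 (SE 0.11, adjusted p = 4.6e-09). GH3.5 rose by 0.60, IAA26 by 0.53, IAA16 by 0.51 and IAA28 by 0.50. All 4 xylem and both tested meristem markers rose over this step, and all 5 flower organ and 3 of 4 leaf markers fell. In Col-0 evening libraries the leaf markers summed to between 4809 and 5345 at ex4, against 12759 to 13107 at ex3, and their part was not tested.

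IAA10, IAA16, IAA26, IAA27 and GH3.5 were called higher in each of the 3 steps (8.69% of all genes tested), and IAA1, IAA8, IAA29 and IAA30 lower in each (10.8%). These counts join means over 4 accessions in the first steps with means over Vel and Col-0 in the last, and they do not say that 1 accession changed each time. IAA8 fell from ex2 to ex3 in Bon and Moj, was at -0.00 in Vel and 0.17 in Col-0, neither called, and was called from ex3 to ex4 in Col-0 alone. GH3.5 rose from ex2 to ex3 by 0.88 in Bon and was not called in the other accessions. IAA27 rose in Col-0 by 0.40, 0.43 and 0.74 at the 3 steps, each called. The ex2 to ex3 rise of IAA10, at 0.14, was lost in 28 of 46 fits that left out 1 library each. Its locus overlaps AT1G04105 on the opposite strand by 619 bases, and that gene was not among those tested. IAA16 had group means between 4.22 and 4.93 at ex1 and reached 7.18 in Col-0 ex4 evening.

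Whether these changes differed between accessions was tested over ex1 to ex3, and they did for 21 of the 30 genes, against 72.9% of all genes tested. For the step between ex1 and ex2 the change in Moj differed from that in Col-0 for 14 genes, against 36.5% of all genes tested. In 4 of them the Moj change was higher (16.7% of all genes) and in 10 lower (19.9%). The same difference was called for 7 genes in Bon (31.4%) and 5 in Vel (33%). IAA14 fell by 2.60 in Moj, 1.91 in Bon, 1.85 in Vel and 1.78 in Col-0, and the Moj fall was larger than that in Col-0 by 0.82 (SE 0.21, adjusted p = 0.0019). In Moj ex2, IAA14 had 0.55, 1.05 and 0.76 in evening libraries and 1.46, 1.97 and 1.46 in morning libraries, all below every ex2 library of Bon and Col-0 at the same time of day. IAA29 fell by 1.27 in Moj and differed by 0.16 in Col-0, which was not called (difference of the changes -1.42, SE 0.27, adjusted p = 3.7e-05).

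IAA6, the SHY1 repressor, had 1.58 and 2.38 in Moj ex1 evening libraries and 3.28, 2.24 and 2.70 in Moj ex1 morning libraries, against at most 0.65 in any Moj library of ex2. It fell by 1.78 in Moj, against 0.71 in Col-0, a difference of -1.06 (SE 0.20, adjusted p = 4.7e-05) that was not called when 0.1 was added before the log in place of 1 (adjusted p = 0.21). GH3.6 rose by 1.09 in Moj and differed by -0.14 in Col-0 (difference 1.23, SE 0.34, adjusted p = 0.0032). IAA16 rose in each accession, with changes of 0.76 (Bon), 1.09 (Moj), 1.06 (Vel) and 1.46 (Col-0). The Bon rise was smaller than that in Col-0 by 0.69 (SE 0.12, adjusted p = 1.3e-05).

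Between ex2 and ex3, 13 of the 30 genes changed in Bon (49.4% of all genes tested), 12 in Moj (37%), 4 in Vel (6.89%) and 8 in Col-0 (19.4%). The change differed from that in Col-0 for 7 genes in Bon (26.3% of all genes tested), for 3 in Moj (16.3%), 2 of them higher (6.98%) and 1 lower (9.28%), and for 1 in Vel (1.61%). IAA8 fell by 0.67 in Bon and 0.83 in Moj and was not called in Vel or Col-0. Against Col-0, where it differed by 0.17, its change was lower by 0.84 (SE 0.19, adjusted p = 0.00071) in Bon and by 1.0 (SE 0.19, adjusted p = 0.00013) in Moj. IAA13 rose by 0.88 in Moj and by 0.33 in Col-0, and the Moj rise was larger by 0.55 (SE 0.13, adjusted p = 0.0017). IAA3 fell by 0.35 in Bon and rose by 0.52 in Col-0 (difference -0.87, SE 0.19, adjusted p = 0.00067). TAA1 differed by -0.25 in Bon, which was not called, and rose by 0.64 in Col-0, a difference of -0.88 (SE 0.22, adjusted p = 0.0024). The summed xylem markers were at most 8.96 in every ex2 library and, as given above, higher than that at ex3 in all libraries of Bon and Moj; their part in these differences was not tested.

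**Figure D4:**
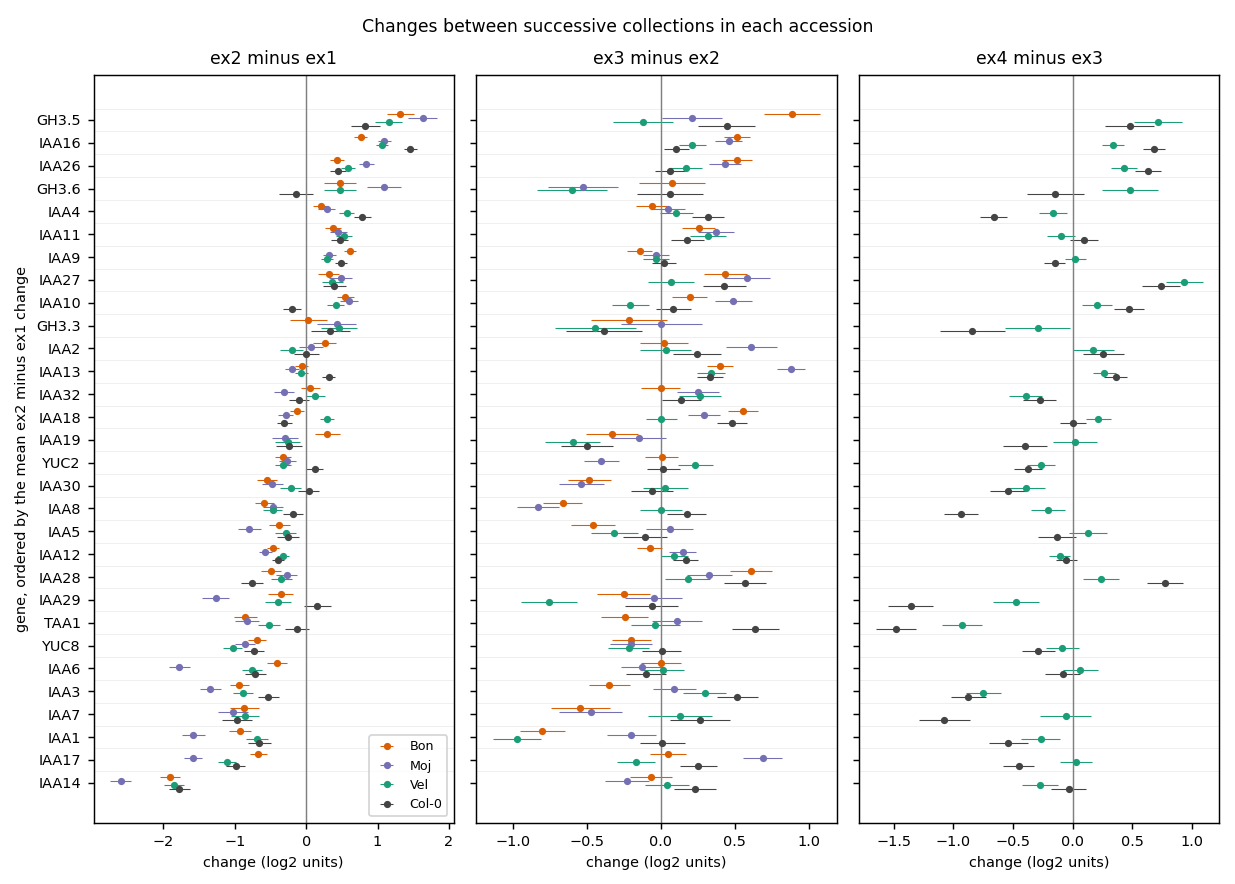
Change between successive collections (log2 units, with 1 SE) of the 30 tested auxin genes in each accession, Bon and Moj being absent from ex4. At the first step IAA14 lay between -2.60 and -1.78 and IAA16 between 0.76 and 1.46 in the 4 accessions, and Moj lay furthest left for IAA14, IAA6 and IAA29.

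The third question was how the Spanish accessions differed from Col-0 over ex1 to ex3, time of day and collection weighted equally. In Bon 20 of the 30 genes differed from Col-0, 8 higher and 12 lower, against 66.5% of all genes tested (32.9% higher and 33.6% lower), with a median of -0.11 against 0.00 over all genes. In Moj 24 differed, 10 higher and 14 lower, against 68.7% (33% higher and 35.7% lower), with a median of -0.14 against -0.01. In Vel 21 differed, 5 higher and 16 lower, against 64.6% (32.2% higher and 32.3% lower), with a median of -0.22 against 0.00. The 3 comparisons share the Col-0 libraries. Reads of every accession were set against the genome of Col-0, and the part of this in the differences was not tested.

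IAA3, IAA7, IAA8, IAA13, IAA16, IAA29 and YUC2 were lower than in Col-0 in Bon, Moj and Vel, against 19.6% of all genes tested. IAA13 in Bon was not called without Col-0 ex1 evening replicate 3 (-0.12, adjusted p = 0.058). IAA8 ranged from 4.11 to 6.06 (median 5.18) in 18 Bon libraries, from 4.03 to 5.86 (median 5.13) in 16 Moj libraries, against 5.54 to 6.47 (median 6.12) in 17 Col-0 libraries. It was lower in Bon by 0.82, in Moj by 1.03 and in Vel by 0.60, in 6 of 6 pairs of collection and time each, though the ranges over collections overlapped. IAA3 was lower in Bon by 0.91, in Moj by 1.16 and in Vel by 0.66, again in 6 of 6 pairs. IAA7 was lower by 0.61, 0.55 and 0.27, the Vel call being lost in 19 of 34 fits that left out 1 library each. IAA29 was lower in Bon by 0.89, in Moj by 1.02 and in Vel by 0.33. IAA16 was lower in Vel by 0.48 and IAA28 in Vel by 0.60.

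IAA17, IAA18, IAA19 and GH3.3 were higher than in Col-0 in Bon, Moj and Vel, against 17.5%. IAA17 ranged from 4.90 to 6.32 (median 5.80) in Bon and from 4.82 to 6.49 (median 5.40) in Vel, against 3.93 to 5.84 (median 4.84) in Col-0. It was higher in Bon by 0.77 (SE 0.07), in Moj by 0.40 (SE 0.08) and in Vel by 0.65 (SE 0.07). IAA19 was higher by 0.48, 1.01 and 0.30, the Vel value being 0.20 (adjusted p = 0.089) without Col-0 ex1 evening replicate 3. GH3.3 ranged from 1.45 to 3.14 (median 2.27) in Moj, against 0.44 to 1.80 (median 1.28) in Col-0. It was higher in Bon by 0.70, in Moj by 1.07 and in Vel by 0.51. IAA18 was higher in Vel by 0.17, a call lost without Col-0 ex1 evening replicate 1 (0.12, adjusted p = 0.083) or Vel ex3 morning replicate 1 (0.13, adjusted p = 0.071). IAA12 was higher in Vel by 0.11 and that call was lost in 16 of 34 fits that left out 1 library each.

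The largest fall against Col-0 among members in Moj was that of IAA14, which ranged from 0.27 to 4.0 (median 1.47) in Moj, against 2.00 to 4.86 (median 3.47) in Col-0, a difference of -1.34 (SE 0.09, adjusted p = 2.2e-20) with Moj lower in 6 of 6 pairs. The group means of Moj and Col-0 were 3.76 and 4.81 at ex1 evening, 3.86 and 4.08 at ex1 morning, 0.79 and 2.38 at ex2 evening and 0.40 and 2.19 at ex3 evening. IAA14 differed from Col-0 by -0.10 in Bon, which was not called, and was lower by 0.30 in Vel. IAA6 was higher in Moj by 0.54 and lower in Bon by 0.46. At ex1 its Moj means were 1.98 in the evening and 2.74 in the morning, against 0.63 and 1.58 in Col-0. At ex2 and ex3 its means were at most 0.62 in Moj and 0.48 in Col-0, and every Bon library was listed at 0. IAA1 was higher by 0.51 in Bon and 0.46 in Moj and lower by 0.26 in Vel. The Vel call of IAA1 was lost without Vel ex3 morning replicate 1, at -0.21. IAA4 was higher by 0.34 in Bon. TAA1 was lower by 0.62 in Bon and 0.94 (SE 0.10) in Moj and differed by -0.07 in Vel, which was not called. GH3.6 was lower by 0.40 (SE 0.13) in Vel. All 4 xylem markers were higher than in Col-0 in Bon and Moj, and none was called in Vel. Of 4 leaf markers 1 was lower in Bon and 2 in Moj, and in Bon 1 of 2 tested root and 1 of 5 flower organ markers were higher. In Vel both tested meristem markers, 1 of 2 tested root markers and 1 of 5 flower organ markers were lower than in Col-0. The part of these markers was not tested.

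**Figure D5:**
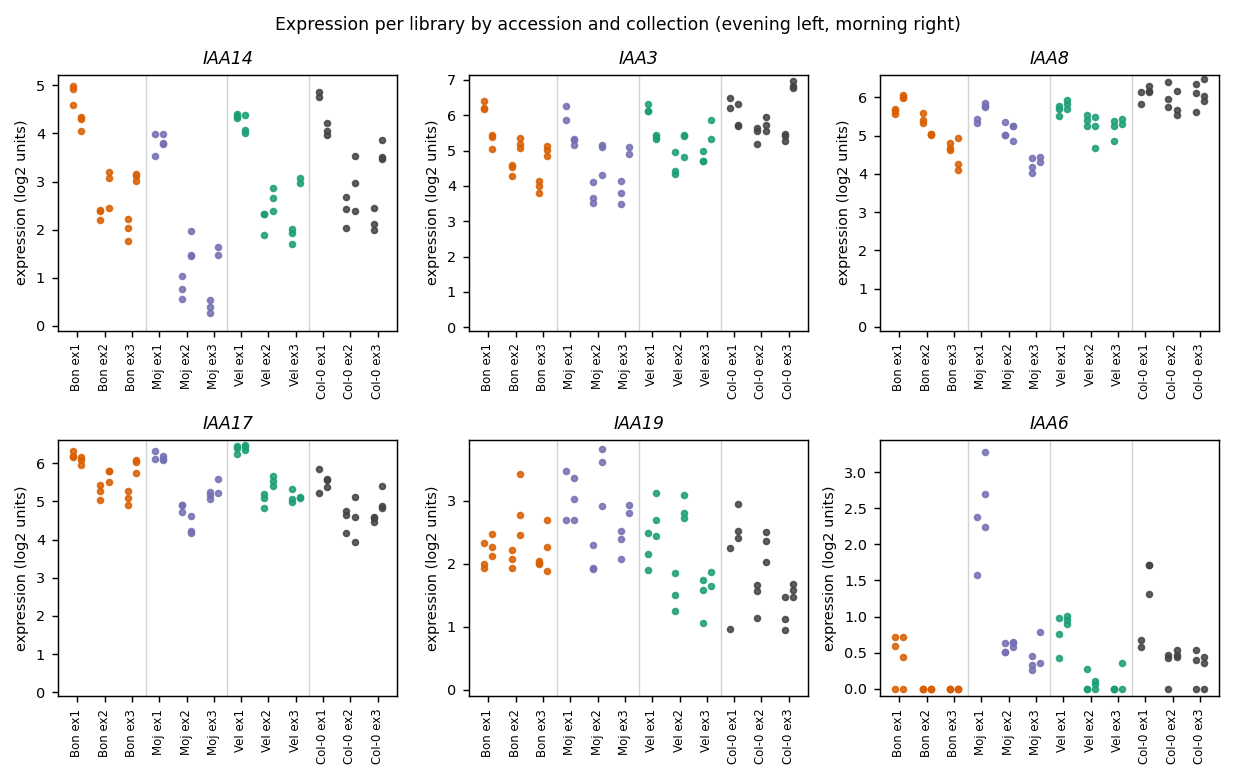
Expression (log2 units) of 6 Aux/IAA genes in every library of ex1 to ex3, by accession and collection, with evening left of morning. IAA14 dropped lowest in Moj, to between 0.27 and 1.97 at ex2 and ex3, on average IAA3 and IAA8 were highest and IAA17 lowest in Col-0, and IAA6 exceeded 2 in Moj ex1 alone.

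Some members are neighbours on the chromosome and are transcribed away from each other, in RefSeq TAIR10.1 coordinates: IAA3 (chr1:1128149-1129689, minus strand) and IAA17 (chr1:1136078-1138663, plus strand), IAA2 (chr3:8180646-8182095, minus strand) and IAA7 (chr3:8194606-8197161, plus strand), and IAA14 (chr4:8347822-8350263, minus strand) and IAA1 (chr4:8360996-8362033, plus strand). The gaps are 6388, 12510 and 10732 bases. IAA3 and IAA17 both fell from ex1 to ex2, but the accessions were lower than Col-0 in IAA3 and higher in IAA17. IAA14 and IAA1 both fell from ex1 to ex2, and at ex1 IAA14 was higher and IAA1 lower in the evening. IAA2 and IAA7 both fell in the evening at ex2 and ex3, whereas from ex1 to ex2 IAA7 fell and IAA2 differed by 0.03, which was not called.

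The rest of the pathway was read from a list of 68 other genes, of which 56 were tested. In the evening 11 rose and 29 fell at ex1, 8 and 26 at ex2, 9 and 27 at ex3 and 5 and 30 at ex4, with medians of -0.27, -0.22, -0.21 and -0.37. Of all genes tested, 22.1% rose and 25.7% fell at ex1, 33.7% and 33.1% at ex2, 29.9% and 28.7% at ex3, and 25% and 23.9% at ex4. Of 6 receptor genes, 5 fell at ex1, and AFB3 fell by 0.67 at ex2 and 0.56 at ex3. Of 15 ARF genes 9 fell and 5 rose at ex1, with ARF18 at -0.96, and 9 fell and 1 rose at ex4, with ARF8, a target of a microRNA, at -1.07. Among 13 tested transport genes, the influx carrier AUX1 fell by 1.13 at ex1 and the efflux carrier PIN3 by 1.40 at ex2. GH3.17, another amido synthetase, fell by 1.37 at ex2 and 1.24 at ex3, opposite to GH3.6.

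From ex1 to ex2 20 of the 56 rose and 25 fell, against 39.5% and 43.7% of all genes tested. All 4 other tested synthesis genes fell, with TAR2, a relative of TAA1, at -1.46. On average over accessions each of the 7 synthesis genes tested in either list was thus lower at ex2. Not every accession shared this: in Col-0 YUC2 went from 0.63 to 0.87 in the evening and stayed at 0.95 in the morning. GH3.2 rose by 1.82, and of 13 transport genes 8 fell, with LAX1 at -1.40. From ex2 to ex3 12 rose and 16 fell (27.8% and 27% of all genes tested), and 7 of 11 tested SAUR genes fell and none rose, SAUR16 by 0.63. From ex3 to ex4 11 rose and 13 fell (30% and 26.7% of all genes tested), with PIN7 at -1.09. Against Col-0, 26 of the 56 were lower in Bon, 29 in Moj and 31 in Vel, and 10 were higher in each. Of all genes tested, 33.6% were lower in Bon, 35.7% in Moj and 32.3% in Vel, and 32.9%, 33% and 32.2% were higher. GH3.2 was higher in Bon by 1.56, in Moj by 1.91 and in Vel by 1.29, and PIN4 was lower by 1.13, 1.02 and 1.14.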

How the data were processed

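Messenger RNA of rosettes was sequenced in 80 libraries, and 79 were used. The table used holds 33602 genes, with values deposited by the authors on a log2 scale. The submitters' processing notes name the tools FastQC, HISAT2 and StringTie and the build TAIR10; versions are not given in the sources used here. That the values are log2 of a length-normalized estimate plus 1, and that libraries were quantile normalized, is read from the values and not stated. No further logarithm was taken. TAIR10 is the genome of Col-0, and reads of all 4 accessions were set against it. Libraries came from a kit without strand marking, per the labels' protocols, so genes that overlap on opposite strands cannot be told apart.

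The 20871 genes that reached 1 in 3 or more libraries entered a model in limma 3.58.1 (R 4.3.3, tables read with the data.table package, version 1.17.8), using 1 mean per group, 51 residual degrees of freedom and a moderated trend. Tests were two-sided, with Benjamini-Hochberg adjustment over all genes and a threshold of 0.05. Contrasts weight groups equally; the F tests cover ex1 to ex3. The fit was tested on simulated data. Member genes, the pathway list and the markers were chosen with earlier results of these data known. In each comparison the 5 largest rises and 5 largest falls among called members with a mean of at least 1 in the higher arm are named, and other members as the text needs; from the pathway list, the largest called gene of a class may be named. Alternatives were leaving out each library, keeping the left-out one, other filters, an offset of 0.1, median scaling, other variance models and a replicate block. Sequences, promoters and coordinates are from RefSeq TAIR10.1. Python 3.11.15 was used with matplotlib 3.10.9, numpy 2.4.6 and pandas 2.3.3.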

Additional observations from a re-analysis of the deposited data

Results flagged for a closer look

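In 10 genes the evening difference was called in opposite directions at ex1 and a later collection, and the change of the difference itself was called. These were 10 of 30 tested genes of the list, and the same was true of 16.3% of all 20871 genes tested. Relative to ex1, the evening difference at ex2 changed by -1.446 log2 units for IAA3, -0.978 for IAA14, -1.192 for IAA28, -0.841 for IAA29, -0.771 for IAA30 and -0.595 for IAA10. It changed by 0.966 for IAA11, 0.52 for IAA8 and 0.468 for IAA9. Relative to ex1, the evening difference at ex3 changed by -1.88 for IAA3, -1.563 for IAA14 and -0.851 for IAA28, and by 0.815 for IAA4, 0.866 for IAA9 and 0.846 for IAA11. The share of all genes tested whose evening difference changed was 59% at ex2 and 54.5% at ex3.

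Between accessions, the ex1 to ex2 change of IAA18 went up in Vel and down in Col-0, a difference of 0.599. The ex2 to ex3 change of IAA3 went down in Bon and up in Col-0, a difference of -0.865.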

How the results depend on the processing

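The counts of genes called in the 10 comparisons and 2 F tests stayed within 1.5 times the reported value under every setting other than leaving out libraries. The exception among the fits that left out 1 library was evening against morning at ex4, which ran from 11 to 17 against 17; the lowest came without Col-0 ex4 evening replicate 1, where the lone library is assumed to vary like other groups. No difference of a named gene changed direction while called. Evening and morning libraries with the same replicate number deviated together (correlation over 0.1) in 12 of 37 pairs, with a median of 0.054, so the numbers were not taken to pair libraries. At ex1 the correlation was positive in every pair, up to 0.38 in Col-0 replicate 1, and at later collections its sign was mixed. A replicate block gave each replicate number 1 shift shared by all groups. With it the counts were 25, 22, 18 and 17 for evening against morning at ex1 to ex4. They were 26, 17 and 19 for the successive collections and 20, 24 and 20 for Bon, Moj and Vel against Col-0. All were within 1.5 times those without the block. Such a block cannot capture pairing within an accession and collection, so these counts do not show whether a pairing matters. An offset of 0.1 ended 15 calls on single genes and added 8, the lack of a filter ended 12, and keeping the left-out library ended 7 and added 2. Median scaling moved the median of all genes by at most 0.00043 and changed no call. The library medians were almost equal beforehand, so this setting could hardly have changed one. Read counts were not analysed here, so what depth limits cannot be stated. The calls ended by the offset of 0.1 include the ex1 evening calls of IAA6, IAA29, IAA30 and YUC8.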

Other observations

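The library labelled Moj ex3 morning replicate 1 entered no comparison. Its IAA14 value was 3.29, against 1.47 and 1.65 in the other Moj ex3 morning libraries and 2.96 and 3.08 in Vel ex3 morning libraries. IAA6 was listed at 0.00 there, against 0.78 and 0.36 in the other Moj libraries of that group. IAA1 was 2.09, against 3.3 and 3.61 in those libraries, and IAA7 was 5.11, against 4.25 and 3.86.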
